A study of Mus musculus with 3 samples.

Results

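The small leucine-rich proteoglycans are secreted matrix proteins built from leucine-rich repeats. They were represented here by 10 genes, Dcn, Bgn, Lum, Fmod, Omd, Ogn, Prelp, Aspn, Kera and Epyc, chosen by family membership from the 18685 named genes of the arrays that do not belong to the silent gene families described below. All 10 were measured, each by 1 probe set carrying that gene symbol alone. The cells were mesangial cells from the kidneys of adult male CD-1 mice carrying the Tg(Meis1-EGFP)FO156Gsat transgene, a bacterial artificial chromosome in which Meis1 regulatory sequence drives green fluorescent protein. Cortical glomeruli were caught on a mesh and dissociated with trypsin, and the fluorescent cells were sorted, so the sort could admit any glomerular cell with transgene activity. The labels name both glomerular and extraglomerular mesangium as the source. There was 1 group of 3 samples, each from 1 kidney and not pooled, with 1 array per sample and no control population. Whether the kidneys belonged to different mice is not stated, so the spread between samples may be partly technical.

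Small leucine-rich proteoglycans bind collagen fibrils with the inner face of a curved repeat domain and influence how fibrils assemble. Several also bind TGF-beta or act as ligands of cell surface receptors, and they carry chondroitin, dermatan or keratan sulfate chains or none. The family is divided into classes by the spacing of cysteines near the amino terminus and by gene structure. Class I contains biglycan (Bgn), decorin (Dcn) and asporin (Aspn), class II contains lumican (Lum), fibromodulin (Fmod), PRELP (Prelp), keratocan (Kera) and osteomodulin (Omd), and class III contains osteoglycin (Ogn) and epiphycan (Epyc). In the kidney, biglycan and decorin are known for their links to TGF-beta and to scarring of the glomerulus.

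The sorted cells had biglycan signal far above background, asporin and PRELP signal moderately above it, and osteoglycin and decorin signal close to it. The remaining 5 genes, Lum, Fmod, Omd, Kera and Epyc, were at background on every array. Values are the deposited log2 signals, where a difference of 1 is a doubling of signal. Background was set on each array by 1269 probe sets of gene families known mainly from sensory epithelia and hair, namely receptors for odorants, pheromones and trace amines together with keratin-associated proteins. Their 95th percentile, called the silent-gene threshold, was 7.48, 7.46 and 7.40 on the arrays of samples 1, 2 and 3. This threshold was passed on every array by 5 of the 10 small leucine-rich proteoglycan genes, against 58.0% of all named genes. A stricter call required a signal exceeding the threshold by more than 1 on every array, which 3 of the 10 genes met, against 32.7% of all named genes. Both shares were near those of all named genes, and the median distance of its members to the threshold was -0.27, against 0.35 over all named genes. Probe sets differ in affinity, so each gene was set against the threshold and against itself on the other arrays, and the values do not rank the genes by amount.

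Markers of the labelled cell type gave signal on every array. The stricter call was met by all 12 measured mesangial markers, among them Ptn at 13.10 ± 0.12 and Itga8 at 12.96 ± 0.01 (SD, n = 3), while Serpine2 was not analysed here. The marker lists were chosen with earlier results of these data known, so their counts give no independent check of cell identity. Of 14 fibroblast markers 6 lay above the threshold and 4 more than 1 above it, with Pdgfra at 11.16 ± 0.13 and Gsn at 9.36 ± 0.05, and with Dpt at 5.51 ± 0.13, Pi16 at 7.34 and Clec3b at 6.87, both chosen after their values were seen, not above it. Of 8 smooth muscle markers 7 lay above the threshold and 6 met the stricter call. All 8 endothelial markers lay above it and 4 met the stricter call, with Tek at 10.78 ± 0.12 (SD, n = 3). Of the podocyte markers 4 of 6 measured lay above it and 1 met the stricter call, Wt1 at 10.15 ± 0.08 (SD, n = 3). Of the parietal epithelium markers 3 of 6 lay above it and 1 met the stricter call, Cd24a at 12.01 ± 0.33 (SD, n = 3). Of the proximal tubule markers 2 of 8 did, of the later tubule markers 5 of 8 and of the macrophage markers 3 of 10, and in these 3 lists none met the stricter call. Of all named genes 58.0% lay above the threshold and 32.7% met the stricter call, so that the podocyte, parietal and later tubule shares above the threshold were near that of all genes and the proximal tubule and macrophage shares below it. The part of other cells in the values below was not tested.

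**Figure D1:**
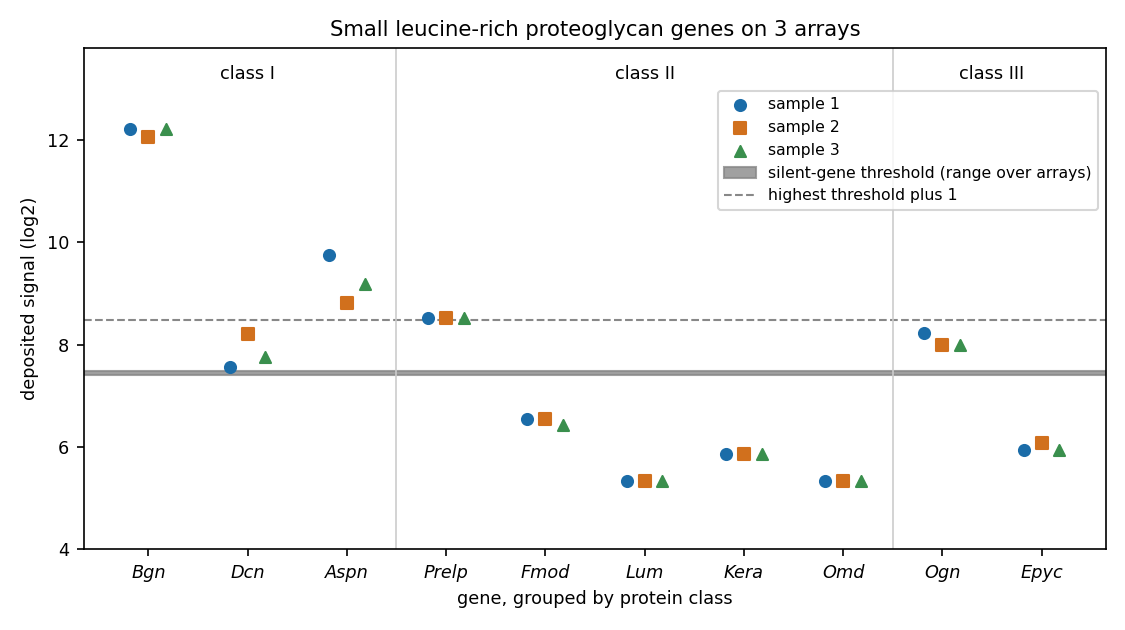
Deposited log2 signal (vertical axis) of the 10 genes on the 3 arrays, with 1 symbol per sample, grouped by protein class along the horizontal axis. The grey band spans the silent-gene thresholds of the arrays, from 7.40 to 7.48, and the dashed line lies 1 above the highest of them. Bgn stands between 12.07 and 12.21, Aspn and Prelp lie above the dashed line, Dcn and Ogn lie between the band and the line, and 5 genes lie below the band.

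By class, 3 of 3 class I genes, 1 of 5 class II genes and 1 of 2 class III genes lay above the threshold, against 58.0% of all named genes. The stricter call was met by 2 class I genes and 1 class II gene, against 32.7% of all named genes. These small numbers are a description and were not tested. The class I gene Dcn passed by only 0.08 in sample 1 and was not above the 99th percentile of the silent probe sets, where its mean distance was -0.51.

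Biglycan, which carries chondroitin or dermatan sulfate chains and is a ligand of Toll-like receptors when soluble, had the largest distance to the threshold of the 10 genes. Its values were 12.21, 12.07 and 12.21 in samples 1, 2 and 3, and its mean distance to the threshold was 4.71. None of the 1269 silent probe sets reached its value on any array. Samples 1 and 3 had the same value, and the highest array exceeded the lowest by only 1.10-fold.

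Asporin, a class I protein with a run of aspartate residues that binds collagen and TGF-beta, had 9.75, 8.82 and 9.18 in samples 1, 2 and 3, a mean of 9.25 ± 0.47 (SD, n = 3). Sample 1 was highest and sample 2 lowest, with a 1.90-fold difference in signal between them, and all 3 lay more than 1 above the threshold. From 3 to 8 of the 1269 silent probe sets lay above asporin on each array. Its range of 0.93 was the widest of the 10 genes.

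Decorin, the class I protein that binds TGF-beta and several growth factor receptors and is abundant in fibroblasts, had 7.56, 8.21 and 7.76 in samples 1, 2 and 3, a mean of 7.84 ± 0.33 (SD, n = 3). It passed the threshold by 0.08 in sample 1, by 0.75 in sample 2 and by 0.36 in sample 3. Sample 2 was highest and sample 1 lowest, the reverse of asporin, and the highest array exceeded the lowest by 1.57-fold. On the array of sample 1, 54 of the 1269 silent probe sets (4.26%) lay above decorin, so its signal there was close to background. In such bulk samples, fewer cells of a type and less RNA per cell cannot be told apart. The summed log2 signal of the 14 fibroblast markers was 107.6, 107.7 and 107.5 in samples 1, 2 and 3, and 8 of the 14 were not above the threshold. Of the 14, 9 had the same value on all 3 arrays, so the sum could vary little. Pdgfra had 11.11, 11.32 and 11.07 in samples 1, 2 and 3 and was highest in sample 2, as decorin was, while Gsn had 9.40, 9.31 and 9.36 and Col1a2 had 8.80 in each sample.

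Prelp, whose product anchors basement membranes to the underlying connective tissue through heparan sulfate and collagen, was the class II gene above the threshold. Its value was 8.51 in each of the 3 samples, and its smallest distance to the threshold was 1.04, so it passed the stricter call narrowly. On each array 12 of the 1269 silent probe sets (0.946%) lay above it.

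Osteoglycin, also called mimecan, a class III protein that influences collagen fibril diameter, had 8.23, 7.99 and 7.99 in samples 1, 2 and 3, a mean of 8.07 ± 0.14 (SD, n = 3). It passed the threshold by at least 0.53 on every array and did not pass the stricter call. Sample 1 was highest, and samples 2 and 3 had the same value.

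The 5 genes not above the threshold did not pass it on any array. Lumican, a keratan sulfate proteoglycan of cornea and other connective tissue and a common fibroblast marker, had 5.33 in each sample. Osteomodulin, a keratan sulfate proteoglycan of bone, also had 5.33 in each sample. Both lay below the middle of the silent probe sets, of which 58.6% to 59.3% had higher values on each array.

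Keratocan, the keratan sulfate proteoglycan known for corneal transparency, had 5.86 in each sample. Epiphycan, a dermatan sulfate proteoglycan of growth plate cartilage, had 5.94, 6.07 and 5.94 in samples 1, 2 and 3. Fibromodulin, a collagen-binding keratan sulfate proteoglycan of tendon and cartilage, had 6.55, 6.55 and 6.42. Fibromodulin was the closest of the 5 to the threshold, at a mean distance of -0.94, and 21.7% to 24.0% of the silent probe sets lay above it. A value below the threshold says that no signal above background was detectable with that probe set, not that the transcript was absent.

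The spread between samples differed among the genes above the threshold. A range over the 3 arrays above 0.25 was found for 2 of the 10 genes, Aspn and Dcn, against 11.5% of all named genes. Both also had a range above 0.5, against 3.43% of all named genes. In contrast, 4 of the 10 genes had the same value on all 3 arrays, against 51.1% of all named genes, and another 4 had the same value on exactly 2 arrays. Whether the processing gave rise to the equal values was not tested, and an SD of 0 is not read here as an absence of error. The same holds for small SDs: with many values identical on several arrays, the SDs given here may be too small.

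Marker lists also varied between the samples. Sums are of log2 values, so genes near background count as much as others. The summed log2 signal of the 8 smooth muscle markers was 78.6, 77.7 and 79.8 in samples 1, 2 and 3, lowest in sample 2 and highest in sample 3. The podocyte sums of 49.0, 48.2 and 49.5, the endothelial sums of 70.7, 70.3 and 71.3 and the parietal sums of 50.1, 49.7 and 50.4 had the same order. Asporin was also lowest in sample 2 but highest in sample 1. The parietal genes did not move together: Cldn1 had 7.69, 6.67 and 7.68, and Cd24a had 11.65, 12.29 and 12.09. The proximal tubule sums were 59.5, 58.3 and 56.6, highest in sample 1 and lowest in sample 3. Within that list Miox had 7.40, 6.15 and 6.13 and Kap had 8.44, 8.51 and 7.17. Cldn1, Miox and Kap were not above the threshold on all 3 arrays, and Cldn1 and Miox were chosen after their values were seen. The tenascin C gene Tnc, a matrix glycoprotein gene of the list of other matrix partners, had 9.67, 7.89 and 9.03. The later tubule list had sums of 58.6, 59.6 and 58.1, within which Calb1 had 7.72, 8.66 and 8.49 and Umod had 9.51, 9.18 and 8.22. With only 3 arrays, unrelated genes often share an order, so a shared order is not read here as a link. The mesangial sums were 142.5, 142.7 and 142.2 and the macrophage sums 68.5, 68.4 and 68.6. The part of other cells in these differences was not tested.

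**Figure D2:**
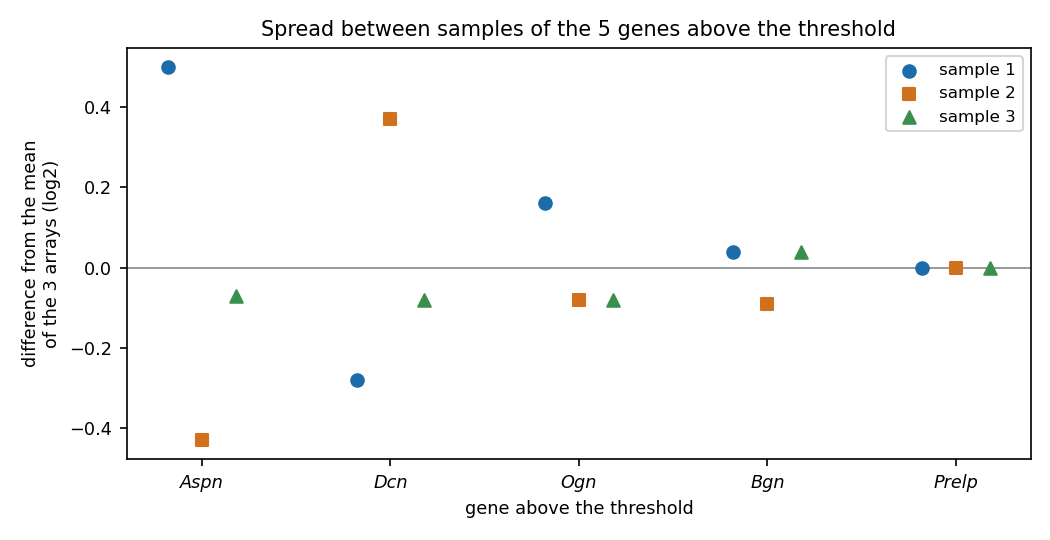
Difference of each sample from the mean of the 3 arrays (vertical axis, log2) for the 5 genes above the silent-gene threshold, with 1 symbol per sample. Aspn was highest in sample 1 and lowest in sample 2, Dcn was highest in sample 2 and lowest in sample 1, and Prelp had no difference between samples.

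Of the 10 genes 9 lie in 3 chromosomal clusters of family genes in the RefSeq annotation of GRCm38.p6, and in each cluster genes above the threshold stood beside genes at background. On chromosome 10 the order is Dcn, Lum, Kera, Epyc, and of these only Dcn lay above the threshold. On chromosome 13 the order is Ecm2, Aspn, Omd, Ogn, and Omd alone was at background between 2 neighbours above the threshold. On chromosome 1 the order is Optc, Prelp, Fmod, and Prelp lay above the threshold between 2 genes that did not. Bgn stands apart on chromosome X, and its flanking genes Haus7 at 7.22 and Atp2b3 at 7.08 were not above the threshold.

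Of the genes that flank the clusters, Ccer1 beside Epyc had 5.72 ± 0.04 (SD, n = 3) and was not above the threshold. Cenpp, a centromere protein gene whose annotated span contains the 4 family genes of chromosome 13, had 5.12 on all 3 arrays. On the other side Nol8, a nucleolar protein gene, had 9.65 ± 0.06 (SD, n = 3), and Btg2, an antiproliferative gene beside Fmod, had 9.66 on all 3 arrays. Gm46240 beside Dcn and Atp2b4 beside Optc were not analysed here.

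**Figure D3:**
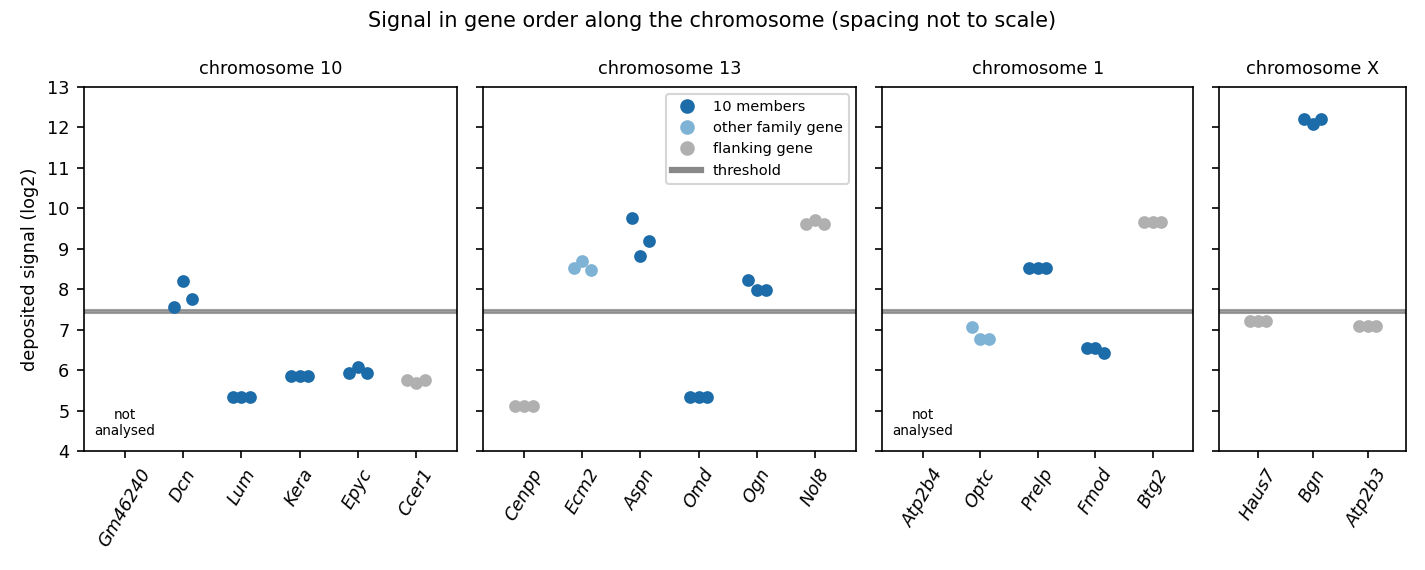
Deposited log2 signal (vertical axis) of family genes and their flanking protein-coding genes in chromosomal order (horizontal axis, not to scale), with 3 points per gene for samples 1, 2 and 3 from left to right. The grey band is the silent-gene threshold. Dcn, Prelp, Aspn and Ogn lie above the band beside Lum, Fmod and Omd below it.

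The promoters of the gene furthest above background and of 3 neighbours on chromosome 13 with opposite calls are shown, so that their sequences can be set beside the calls. They cover 250 bases before to 50 bases after the annotated start and were taken from RefSeq, build GRCm38.p6, with the motifs TATAAA and GGGCGG in capitals on either strand (on the opposite strand TTTATA and CCGCCC).
Bgn (chrX:73483351-73483650, plus strand): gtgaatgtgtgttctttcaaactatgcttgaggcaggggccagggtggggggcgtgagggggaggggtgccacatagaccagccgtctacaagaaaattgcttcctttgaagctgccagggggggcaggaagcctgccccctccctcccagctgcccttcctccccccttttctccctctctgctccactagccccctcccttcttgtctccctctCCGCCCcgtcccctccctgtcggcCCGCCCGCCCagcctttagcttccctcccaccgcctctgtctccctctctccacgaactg
Aspn (chr13:49544193-49544492, plus strand): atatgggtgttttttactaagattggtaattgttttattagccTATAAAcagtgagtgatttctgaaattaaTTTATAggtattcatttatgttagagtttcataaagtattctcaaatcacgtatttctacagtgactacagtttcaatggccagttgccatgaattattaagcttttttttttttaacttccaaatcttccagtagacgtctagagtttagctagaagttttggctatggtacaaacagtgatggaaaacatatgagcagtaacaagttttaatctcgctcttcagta
Omd (chr13:49582212-49582511, plus strand): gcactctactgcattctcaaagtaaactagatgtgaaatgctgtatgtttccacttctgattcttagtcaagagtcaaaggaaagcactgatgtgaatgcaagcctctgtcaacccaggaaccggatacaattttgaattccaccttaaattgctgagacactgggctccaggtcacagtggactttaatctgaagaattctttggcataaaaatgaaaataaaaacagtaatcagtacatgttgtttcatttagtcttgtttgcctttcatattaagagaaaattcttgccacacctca
Ogn (chr13:49607765-49608064, plus strand): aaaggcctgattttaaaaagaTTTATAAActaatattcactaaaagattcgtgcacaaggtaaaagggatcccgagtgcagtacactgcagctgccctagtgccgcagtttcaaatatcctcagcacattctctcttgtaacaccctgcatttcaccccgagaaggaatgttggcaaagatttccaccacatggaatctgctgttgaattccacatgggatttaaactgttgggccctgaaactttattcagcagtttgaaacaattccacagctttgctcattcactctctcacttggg

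RefSeq gave 9 promoters of 8 of the 10 genes, without Dcn and Lum, and 2 for Epyc. The Bgn promoter had a GC content of 63.7%, the highest of the 9, and held 3 copies of CCGCCC, of which 2 overlap. The other 8 promoters held no GGGCGG on either strand, and 35.7% of all 32851 RefSeq promoters held it. TATAAA on either strand was found in the promoters of Aspn and Ogn and in none of the other 7, against 13.6% of all promoters. In the Ogn promoter the copies on the 2 strands overlap, and the first copy on the strand of the gene began at base -207 from the start in Aspn and at base -227 in Ogn. The GC content was 31.0% in Aspn, 37.7% in Omd and 42.3% in Ogn, against a median of 52.7% over all promoters. These matches describe the letters in the window and say nothing of the binding of a factor.

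Of 7 other leucine-rich repeat proteoglycans and relatives that were measured, 4 (57.1%) lay above the threshold and 2 (28.6%), Nyx and Ecm2, met the stricter call, against 58.0% and 32.7% of all named genes. Ecm2, a matrix protein gene next to Aspn, had 8.52, 8.69 and 8.48 in samples 1, 2 and 3. The chondroadherin-like gene Chadl had 8.30, 8.27 and 8.27. The podocan gene Podn had 7.48 on each array and lay at the threshold, with a distance of 0.00 in sample 1.

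The nyctalopin gene Nyx, known from the retina, had 1 probe set at 10.36 and another at 6.22 on all 3 arrays, so its probe sets disagreed and its level is uncertain. With the lower probe set, 3 of the 7 genes lay above the threshold, against 56.9% of all named genes, each with its lowest probe set. Podnl1 had 7.35, the chondroadherin gene Chad 7.13 and the opticin gene Optc 6.88 ± 0.17 (SD, n = 3), and these 3 were not above the threshold. Tsku was not analysed here.

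Collagen genes, whose fibrils these proteoglycans bind, were above the threshold throughout the list, though mostly by less than 1. All 14 collagen genes lay above it, against 58.0% of all named genes, and their median distance was 0.81. The stricter call was passed by 4 (28.6%), near the 32.7% of all named genes. The other 10 lay within 1 of the threshold, and 11 of the 14 had the same value on all 3 arrays. Col12a1, for a collagen on the fibril surface, had 10.10 ± 0.01, Col6a3, for a chain of beaded filaments, 9.77 ± 0.12 (SD, n = 3), and Col1a2, of the main fibril collagen, 8.80. Col3a1 had the smallest distance of the list, at 7.71. At the 99th percentile of the silent probe sets 6 of the 14 remained, against 35.3% of all named genes.

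Of 13 other matrix partners 4 (30.8%) lay above the threshold and none passed the stricter call on all 3 arrays, against 58.0% and 32.7% of all named genes. Tnc was as given, the elastin gene Eln had 8.25 and the perlecan gene Hspg2 8.17. The dermatopontin gene Dpt, at 5.51 ± 0.13 (SD, n = 3), was at the low end. Large chondroitin sulfate proteoglycans and their link proteins were mostly at background, with 2 of 10 (20.0%) above the threshold, against the same 58.0%. Cspg4, the NG2 proteoglycan of pericytes, had 9.41 ± 0.04 (SD, n = 3) and passed the stricter call, and the link protein gene Hapln2 had 7.74. The neurocan gene Ncan had 7.47 and passed the threshold on 2 of the 3 arrays, and Hapln1 had 5.70.

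The enzymes that build the sugar chains were above the threshold in part. For the linker and the chondroitin backbone 8 of 13 genes (61.5%) lay above it and 3 (23.1%) passed the stricter call. Of all named genes 58.0% and 32.7% did, so the first share was near that of all genes. Csgalnact2, which starts chondroitin chains, had 9.86 ± 0.02, the linker xylose kinase gene Fam20b 9.26 ± 0.07 (SD, n = 3), the chondroitin synthase gene Chsy1 8.92, and Chsy3 7.09, which was not above it. For modification of chondroitin and dermatan sulfate 8 of 13 (61.5%) lay above it and 6 (46.2%) passed the stricter call, beside the same 58.0% and 32.7%.

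The chondroitin sulfotransferase gene Chst15 had 10.04 ± 0.01, and the dermatan sulfotransferase gene Chst14 had 9.86 ± 0.18 (SD, n = 3). The dermatan epimerase genes Dsel and Dse had 9.45 and 9.28 ± 0.01 (SD, n = 3), where Dse was chosen after its value was seen. Of the sulfate donor synthase genes, Papss2, at 6.27, was not above the threshold. Papss1, chosen after its value was seen, had 9.26 ± 0.08 (SD, n = 3) and met the stricter call.

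For keratan sulfate chains, carried by several of the class II proteins, 6 of 8 genes (75.0%) lay above the threshold and 3 (37.5%) passed the stricter call. Of all named genes 58.0% and 32.7% did. Lum, Fmod, Kera and Omd themselves were at background. The chain-extending enzyme genes B3gnt2 and B4galt1 had 11.54 and 9.31 ± 0.13, and the sulfotransferase gene Chst2 had 8.79 ± 0.17 (SD, n = 3), while Chst4 had 6.70 and was not above it. Many of these enzymes also act on other glycans. Both tyrosine sulfotransferase genes lay above the threshold, Tpst1 at 9.79 and Tpst2 at 7.81 ± 0.13 (SD, n = 3), enzymes that sulfate the amino-terminal tyrosines of class II proteins.

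**Figure D4:**
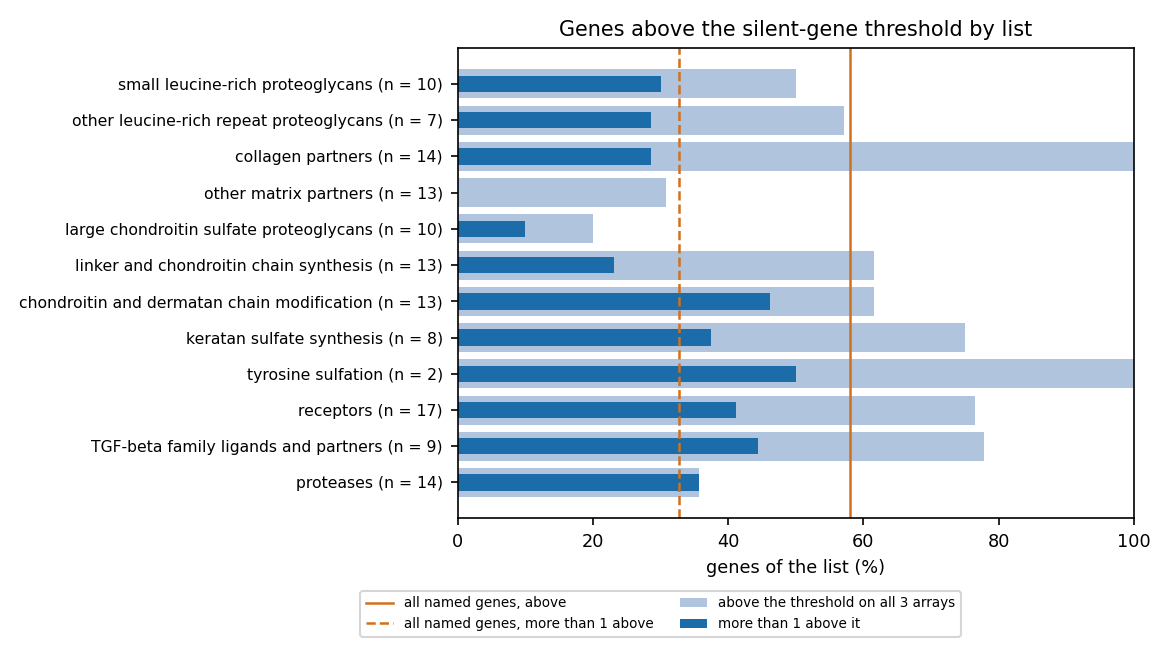
Share of the genes of each list (horizontal axis, percent) above the silent-gene threshold on every array (wide bars) and more than 1 above it (narrow bars), with the number of measured genes. The orange lines mark 58.0% and 32.7% of all named genes. The 10 small leucine-rich proteoglycan genes stand at 50% and 30.0%, and the collagen list at 100.0% and 28.6%.

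Of 17 genes for receptors linked to these proteoglycans, their coreceptors and their adaptors, 13 lay above the threshold and 7 met the stricter call, against 58.0% and 32.7% of all named genes. The integrin subunit gene Itgb1 had 12.42 ± 0.04, and the endocytic receptor gene Lrp1, which takes up decorin, had 10.95 ± 0.10 (SD, n = 3). Of the Toll-like receptors through which soluble biglycan signals, Tlr4 had 10.31 on every array and Tlr2 had 7.32, not above the threshold. Their coreceptor gene Cd14 had 9.41, 9.23 and 9.41 and the adaptor gene Myd88 had 9.07, all more than 1 above the threshold. The decorin receptor gene Met had 5.18 and the hyaluronan receptor gene Cd44, a coreceptor for biglycan, 6.21, both at background. Of the other growth factor receptor genes of the list, Igf1r had 9.17 and met the stricter call. Erbb2 at 8.40, Egfr at 8.22 and Kdr at 7.57 lay above the threshold, and Erbb4 at 6.83 did not. Tlr2, Cd14, Myd88, Cd44, Igf1r, Erbb2, Egfr, Kdr and Erbb4 were chosen after their values were seen.

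Of 9 TGF-beta family ligands and partners 7 (77.8%) lay above the threshold and 4 (44.4%) passed the stricter call, against 58.0% and 32.7% of all named genes. The connective tissue growth factor gene Ccn2 had 11.45 ± 0.15, Bmp4 had 10.08 and Bmp2 had 9.00 ± 0.28 (SD, n = 3), and the tumour necrosis factor gene Tnf, at 6.96, was not above it. Tgfb1, the ligand most often linked to decorin and biglycan, had 8.87 on every array and was chosen after its value was seen.

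Of 14 protease genes 5 (35.7%) lay above the threshold, and all 5 passed the stricter call. Of all named genes 58.0% lay above it and 32.7% passed the stricter call, so the stricter share was near that of all genes. Adamts5, an aggrecanase that also cuts biglycan, had 12.76 ± 0.05, the gelatinase gene Mmp2 11.20 ± 0.08 and the serine protease gene Htra1 11.06 ± 0.26 (SD, n = 3). Mmp14, for a membrane-bound matrix metalloproteinase, had 10.26 and Bmp1, for the protease that removes the propeptide of probiglycan, 9.22 ± 0.02 (SD, n = 3), both chosen after their values were seen. The other 9, among them the collagenase gene Mmp8 at 5.28 ± 0.04 (SD, n = 3), were not above the threshold. Over all related lists together 73 of 120 measured genes (60.8%) lay above the threshold, against 58.0% of all named genes.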

How the data were processed

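RNA from 3 samples of sorted cells was amplified once, labelled with biotin and hybridised to 1 array each, per the labels' protocols. The authors deposited log2 signals per probe set, for which the submitters' processing notes name Affymetrix Expression Console. Version, background correction and summary method: not given in the sources used here. Base 2 was taken from the highest value, 14.39, which fits a 16-bit scanner only in base 2. Array medians of 7.53, 7.56 and 7.54 nearly coincided. Centring is unknown, and the values were used as deposited. Precision is limited by the number of arrays and by the many equal values between them, which may make SDs too small.

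Of 35557 probe sets, 21789 had 1 gene symbol in the platform annotation, 1621 had several and 12147 were not listed. Symbols were updated by Entrez number with RefSeq GRCm38.p6, and per gene the probe set with the highest mean was used. The threshold used 1269 probe sets of 1253 silent genes, of which 59 (4.71%) lay above it. With 1 group, no test between conditions was made, and lists are described by counts and medians. Whether the calls are right for single genes on these arrays was not tested. By the rule for named genes, all members, all other leucine-rich repeat proteoglycans, the 3 highest and 1 lowest gene of each other list and the flanking genes could be named. The members and lists were chosen with earlier results of these data known. Protein sequences were not used here, so classes are those of general knowledge. Python 3.11.15, pandas 2.3.3 and numpy 2.4.6 were used. Alternatives changed the percentile, silent families, arrays required, samples, probe set and scaling.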

Additional observations from a re-analysis of the deposited data

How the results depend on the processing

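The same 5 genes, Dcn, Bgn, Ogn, Prelp and Aspn, lay above the threshold in 9 of the 10 alternatives. Among these was the 90th percentile, where 68.8% of all named genes passed. Each member had 1 probe set, not shared with another symbol, and passed on all 3 arrays or on none. The alternatives in probe set, arrays required and samples therefore could not change this count, and only those in percentile and silent families could. At the 99th percentile, with thresholds of 8.35, 8.36 and 8.35, 3 genes remained (Bgn, Prelp and Aspn), against 35.3% of all named genes. There the mean distance was -0.51 for Dcn and -0.28 for Ogn, Bgn alone passed more than 1 above it (1 gene, against 17.2%), 43 genes of the related lists were above, and the median distance of the members was -1.17. At the 90th percentile that median was 0.10. These changes follow from the higher or lower threshold. Leaving out 1 sample at a time gave 5 genes above the threshold and 3 more than 1 above it each time, 73 to 77 genes of the related lists, and a median distance of -0.37 to -0.20. Of all named genes, 58.2% to 58.9% then lay above the threshold and 32.9% to 33.8% more than 1 above it. A range above 0.25 was found for 1 to 2 genes: without replicate 2 Aspn alone kept it. With a range above 0.1, 6 genes were counted, which were all the members without the same value on all 3 arrays. With array medians subtracted, 3 were counted. Shares of all named genes were not computed for these alternatives, so the counts are not read further. No paired analysis was possible because there was 1 group. Signal near the threshold limits what can be said of Dcn, Ogn and Podn.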
